A study of Mus musculus with 8 samples.

Results

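The outer root sheath cells described here are 862 epithelial cells of mouse dorsal skin chosen for genes such as Lgr5, Id4 and Sfrp1, any 4 of 8 sufficing. They were chosen by their measured genes among 11118 cells that passed the quality limits of 500 to 4000 genes, at most 20000 UMIs (unique transcript molecules) and at most 10% mitochondrial UMIs. A cell was a member when it held at least 5 UMIs of Krt5 and Krt14, at least 4 of the 8 genes Id4, Scrg1, Gnmt, Sfrp1, Fhod3, Slc7a8, Pappa and Lgr5, and fewer than 4 of the 7 contractile genes Tagln, Dio3, Acta2, Foxe1, Fgf5, Slc1a3 and Cntfr. The collagens Col1a1, Col1a2 and Col3a1 had to be under 1% of its UMIs, and Ptprc, the pan-leukocyte gene, at 0. The members were 17.6% of the 4889 Krt5 Krt14 cells, which met the same limits without the 8 and the 7 genes, and 7.75% of all filtered cells.

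The libraries come from dorsal skin of female BALB/c mice of 14 to 16 weeks. In 4 of them the skin had received PBMCsec, the secretome of irradiated human peripheral blood mononuclear cells, by injection under the skin, and in 4 a vehicle by the same route. Each library is a 10x Genomics single-cell library of 1 sample. The labels do not state whether the skin had been wounded, when it was taken, or which vehicle was given, while the study's methods describe injections into scars of wounded backs, so libraries were compared by the treatment label alone. That study lists these data among its own, but the series title names another study, on mast cells and basophils. The design in the study's methods may therefore not be that of these libraries. The PBMCsec libraries numbered 1 to 4 held 81, 30, 115 and 129 members, and the vehicle libraries 5, 21, 327 and 154. Vehicle library 3 alone held 37.9% of all members. Levels are given as CPM, the UMIs of a gene per 1000000 UMIs of the summed cells of a set in a library. Each set was averaged over its own libraries with at least 10 such cells. For the members these are 7 libraries, and vehicle library 1 is left out of them. For the other Krt5 Krt14 cells and for fibroblasts they are all 8, so those means and ranges include vehicle library 1. Ratios and counts of libraries use only libraries that both sets hold. The members held a median of 8461 UMIs and 3043.5 genes, against 8971.5 UMIs in the other Krt5 Krt14 cells. Whole libraries held 27786595, 18578561, 33908551 and 37880651 UMIs after PBMCsec, and 14753926, 16460623, 33333619 and 30494307 after vehicle.

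The outer root sheath is the outermost epithelial layer of the hair follicle, continuous with the basal layer of the epidermis, and it encloses the growing hair below the stem cell niche called the bulge. Lgr5, a receptor for R-spondins that strengthens Wnt signalling, marks actively cycling stem cells of the lower follicle. Id4 inhibits basic helix-loop-helix transcription factors, and Sfrp1 is a secreted protein that binds Wnt ligands. Wnt signals promote follicle growth, whereas BMP signals hold its stem cells at rest.

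The label was checked against markers that the rule did not use. The follicle keratin Krt17 lay between 2349 and 6000 CPM in the members (median 3810) and above the other Krt5 Krt14 cells in 7 of 7 libraries. Sox9, a transcription factor of the follicle stem cell lineage, lay between 455 and 1178 CPM and was also higher in 7 of 7. Wider lists did not all point the same way. Of 18 regulators of follicle stem cells and outer root sheath, 8 were at least 2-fold higher in the members and 6 at least 2-fold lower, and of 8 basal and outer root sheath keratins 0 were at least 2-fold higher and 5 at least 2-fold lower. Reads of Krt17 may also be shared with keratins of close sequence. The label thus rests on the genes that chose the cells, with Krt17 and Sox9 as the 2 fixed follicle markers outside the rule. "Other Krt5 Krt14 cells" are the 3506 cells with fewer than 4 of the 8 genes, from interfollicular, infundibular and follicular epithelium alike. Because the rule split the same cells, every level of members against these cells is a description without a test.

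Sfrp1 reached 573 to 2966 CPM (median 1771) in the members, against 82.9 to 157 CPM in the other Krt5 Krt14 cells. Id4 reached 789 to 1532 CPM, against 37.8 to 142 CPM. Lgr5 reached 228 to 436 CPM, against 9.06 to 58.3 CPM. No library's members fell inside the range of the other cells for these genes, as the rule favours. A UMI of Id4 was found in 96.1% of the members and of Lgr5 in 81.3%, against 0.995% and 0.663% of leukocytes, which should lack both genes and held a median of 3814 UMIs. In the deeper fibroblasts (median 7917 UMIs) the shares were 8.11% for Id4 and 4.66% for Lgr5. Gnmt was the least often found of the 8 genes, in 30.3% of the members, with 1.88% in the other Krt5 Krt14 cells. Id4 lies on chromosome 13 (48261228 to 48266026, GRCm38), Sfrp1 on chromosome 8 (23411502 to 23449632) and Lgr5 on chromosome 10 (115450311 to 115587780), all as protein-coding genes.

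**Figure D1:**
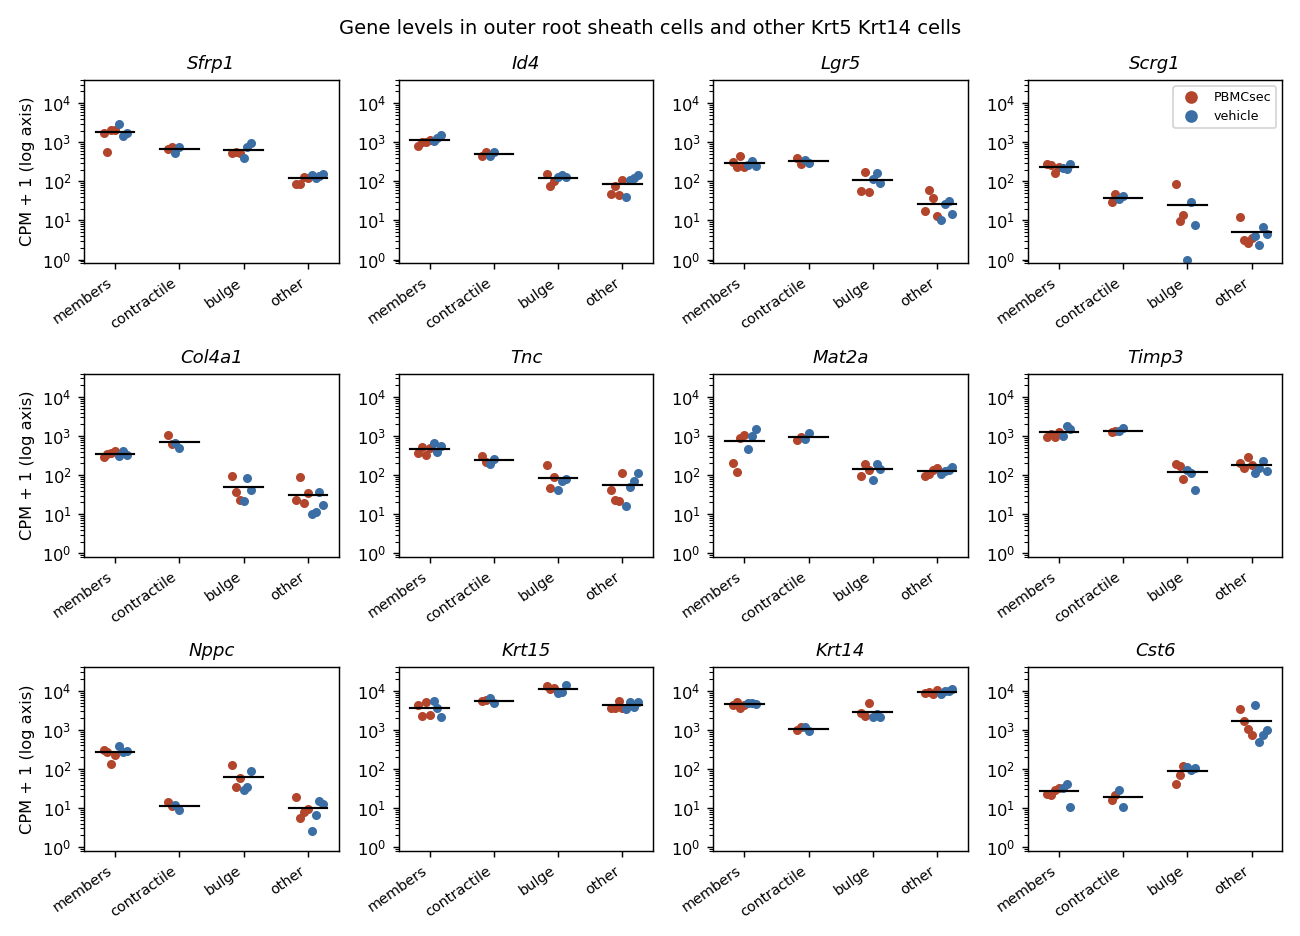
CPM plus 1 on a log axis for 12 genes in members (7 libraries), contractile cells (4), bulge-type cells (6) and other Krt5 Krt14 cells (8). Each point is 1 library with at least 10 such cells (red after PBMCsec, blue after vehicle), the line is the mean over libraries, and the other Krt5 Krt14 cells include the bulge-type cells. Sfrp1, Id4 and Scrg1 belong to the rule, as does Lgr5. Nppc was not used in it and separates the library sums of members (134 to 393 CPM) from those of contractile cells (8.15 to 13.0 CPM). It does not separate all members, since those of cluster 3, described below, held 7.11 CPM.

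The members ranged from 211 cells with exactly 4 of the 8 genes to 104 cells with all 8. Cells just inside the limit of 4 genes held 797 CPM of Sfrp1 and 535 CPM of Id4, and the 332 cells just outside, with 3 genes, held 457 and 420 CPM. At the other border, the 159 members with 3 contractile genes held 384 CPM of Acta2, and the 144 cells left out with 4 contractile and at least 4 of the 8 genes held 807 CPM. Of the 1383 Krt5 Krt14 cells with at least 4 of the 8 genes, 521 (37.7%) were left out for their contractile genes. The side outside the limit of 4 genes held more Acta2 (837 against 155 CPM) and averaged 7 libraries in place of 5. These values follow from the rule genes and are given only to place its limits.

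The 18 regulators counted above, and the lists below, are read against all genes. Over all 7036 genes that reached 20 CPM in either set, 546 (7.76%) were at least 2-fold higher and 377 (5.36%) at least 2-fold lower, with a median ratio of 1.1 (5 CPM added to both). Nfib, a transcription factor of follicle stem cells, averaged 1831 against 731 CPM. Tcf7l1, a transcriptional partner of beta-catenin that can act as a repressor, averaged 74.8 against 14.2 CPM. The hedgehog co-receptor gene Gas1 averaged 607 against 212 CPM, and the vitamin D receptor gene Vdr 436 against 159 CPM. Hopx, a marker of bulge stem cells, went the other way at 94.2 against 276 CPM. In the libraries of the contractile cells described below, Vdr lay between 778 and 954 CPM and Nfib between 1511 and 2240 CPM. Tcf7l1 was there at 66.5 to 106 CPM, Gas1 at 170 to 289 CPM and Hopx at 8.34 to 25.8 CPM.

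The basal keratins Krt14 and Krt5 were lower in the members than in the other Krt5 Krt14 cells. Krt14 averaged 4521 against 9466 CPM and lay below the other cells in 7 of 7 libraries. Krt5 averaged 3338 against 4978 CPM. Krt15, which is highest in the bulge, was spread from 2159 to 5433 CPM and overlapped the other cells' 3529 to 5601 CPM. Counts of keratin genes with close sequence, such as Krt14, Krt16, Krt17 and Krt42, may be split between copies by the counting and are uncertain to that extent.

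The Wnt pathway held genes on both sides. Fzd2, a Wnt receptor gene, averaged 357 CPM in the members (257 to 653) against 56.0 CPM in the other Krt5 Krt14 cells. The co-receptor gene Lrp6 averaged 182 against 85.6 CPM. Of 15 receptor and R-spondin axis genes that reached 20 CPM (24 listed), 2 were at least 2-fold higher and 3 at least 2-fold lower, with a median ratio of 1.27. Over all genes the shares were 7.76% and 5.36%, so these small counts are a description only. Among the inhibitors besides Sfrp1, Shisa2, which retains Frizzled receptors inside the cell, averaged 391 against 97.9 CPM. Dkk3, a secreted relative of the Dickkopf inhibitors, averaged 115 against 25.5 CPM. Sostdc1, which binds both BMP and Wnt components, stood at 74.2 against 328 CPM. Of the ligands, Wnt4 was lower at 57.5 against 190 CPM and Wnt5b higher at 25.9 against 3.47 CPM.

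Several matrix genes had large ratios outside the rule. Of 25 listed genes of matrix adhesion and basement membrane, 24 reached 20 CPM, 9 of these were at least 2-fold higher and 0 at least 2-fold lower, with a median ratio of 1.74. Col4a1 lay between 288 and 416 CPM in the members, against 9.06 to 88.5 CPM in the other cells. Col4a2, which encodes its partner chain in the type IV collagen network, lay between 175 and 302 CPM, against 4.53 to 65.0 CPM. The groups did not overlap for either gene. Both genes lie head to head on chromosome 8, Col4a1 at 11198423 to 11312826 on the minus strand and Col4a2 at 11312805 to 11449287 on the plus strand. Col12a1, a collagen that coats fibrils, averaged 457 against 30.6 CPM. Tnc, the gene of the matrix protein tenascin C, averaged 477 against 55.2 CPM, and Timp3, a metalloproteinase inhibitor held in the matrix, 1239 against 181 CPM. Fibroblasts, over all 8 libraries, held 439 CPM of Col4a1 and 51.9 CPM of Tnc.

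Among genes of at least 50 CPM in the members, the 15 with the largest ratio outside the rule were Nppc, Col12a1, Mfap2, Col4a1, Heg1, Col4a2, Lrrc75b, Sardh, Itih5, Lbh, Dhrs9, Trf, Tnc, Gdf10 and Krt42. Each was higher in the members in 7 of 7 libraries. Nppc, which encodes C-type natriuretic peptide, led them with 134 to 393 CPM against 1.51 to 17.97 CPM in the other cells. Gdf10, a BMP family ligand, averaged 50.9 against 2.44 CPM. Dhrs9, a retinol dehydrogenase gene, averaged 190 against 17.4 CPM. At the low end, among genes of at least 200 CPM in the other cells, stood Defb6, Serpinb2, Krt79, Ly6d and Cst6, genes of the infundibulum and differentiating epidermis. They were at 3.77 to 25.8 CPM in the members and 722 to 1666 CPM in the other cells over 8 libraries. In the 7 libraries of the members, the other cells held 630 to 1292 CPM.

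Gnmt, a rule gene, encodes glycine N-methyltransferase, which consumes the methyl donor S-adenosylmethionine. Of its pathway, 3 genes had high means in the members. Mat2a, the enzyme that makes S-adenosylmethionine, averaged 741 against 127 CPM, and Sardh, which oxidises the sarcosine that Gnmt makes, 132 against 11.2 CPM. Cbs, which draws homocysteine into cysteine synthesis, averaged 94.1 against 25.7 CPM. Of the 10 listed methionine and one-carbon genes that reached 20 CPM, these 3 were at least 2-fold higher and 0 at least 2-fold lower, with a median ratio of 1.18. The 3 were not particular to the members. In the libraries of the contractile cells described below, Mat2a lay between 787 and 1214 CPM, Sardh between 101 and 140 CPM and Cbs between 141 and 194 CPM.

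The same genes differed strongly among libraries. Gnmt was at 24.5, 5.84, 416 and 184 CPM in the members of PBMCsec libraries 1 to 4, and at 247, 68.5 and 149 CPM in vehicle libraries 2 to 4. Mat2a was at 198, 120, 890 and 1061 CPM after PBMCsec and at 459, 980 and 1480 CPM after vehicle. PBMCsec libraries 1 and 2 were the lowest for both genes, and for Cbs as well, at 38.5 and 20.5 CPM against 70.6 to 174 CPM in the other libraries. In the other Krt5 Krt14 cells Mat2a stayed between 92.2 and 160 CPM, a range that holds the members of PBMCsec library 2. The members of these libraries also had the highest summed immediate early and heat shock genes, 15662 and 14481.5 CPM, and PBMCsec library 2 the highest median share of mitochondrial UMIs among the 7 libraries, 6.13%. The part of these features in the spread was not tested.

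Several amino acid transport genes were high besides the rule gene Slc7a8, which encodes the light chain LAT2 of a neutral amino acid exchanger. Of 14 listed genes, 10 reached 20 CPM, 6 were at least 2-fold higher and 0 at least 2-fold lower, with a median ratio of 2.63. Slc3a2, the heavy chain that LAT2 needs to reach the membrane, averaged 669 CPM in the members against 185 CPM. The taurine transporter gene Slc6a6 averaged 764 against 222 CPM, and the arginine transporter gene Slc7a1 126 against 31.4 CPM. These levels were not particular to the members. In the contractile cells described below, Slc3a2 lay between 1148 and 1556 CPM, Slc6a6 between 747 and 1004 CPM and Slc7a1 between 300 and 522 CPM.

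Among growth factor pathways, Pappa encodes a protease that releases IGF from IGFBP4, and Igfbp4 averaged 427 CPM in the members against 135 CPM in the other cells. Igfbp3 was lower, at 42.1 against 256 CPM. The latent TGF-beta binding protein genes Ltbp4 and Ltbp3 averaged 445 against 78.9 CPM and 302 against 64.4 CPM. The Notch ligand gene Jag1 averaged 375 against 127 CPM. In the libraries of the contractile cells described below, Igfbp4 lay between 544 and 1014 CPM and Ltbp3 between 277 and 370 CPM. Ltbp4 was there at 168 to 306 CPM, Jag1 at 175 to 242 CPM and Igfbp3 at 37.8 to 101 CPM. Of the other Id genes, Id1 averaged 46.3 against 92.1 CPM, Id2 66.9 against 83.4 CPM and Id3 48.8 against 141 CPM. Id1 and Id3 are targets of BMP signalling, and both were lower in the members in 7 of 7 libraries.

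Several cell cycle and stress genes had lower means in the members. Mki67, a proliferation gene, averaged 17.6 against 93.7 CPM, and 3.83% of the members held at least 3 genes of the G2/M list, against 12.1% of the other Krt5 Krt14 cells, 10.8% of the contractile cells and 4.19% of the bulge-type cells. The G2/M list summed to less in the members than in the other Krt5 Krt14 cells except in vehicle library 2, with 282 against 265 CPM. Of 24 immediate early and heat shock genes, 0 were at least 2-fold higher and 11 at least 2-fold lower. Their sums were 15662 against 16544 CPM in PBMCsec library 1 and went the other way in library 2, with 14481.5 against 12654 CPM. The metallothionein genes Mt1 and Mt2 averaged 129 against 1416 CPM and 48.7 against 669 CPM. The chemokine genes went apart, with Ccl27a, a skin homing signal for T cells, at 102 against 856 CPM and Cxcl14 at 2030 against 609 CPM.

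The contractile cells shared many rule genes with the members. These are the 581 Krt5 Krt14 cells with at least 4 of the 7 contractile genes, and 89.7% of them also held at least 4 of the 8. In the 4 libraries with at least 10 such cells, Mat2a, Timp3 and Lbh had ratios of members to contractile cells of 1.16, 1.01 and 0.876. Nppc was higher in the members in 4 of 4 libraries with a ratio of 15.1, and Itih5, an inhibitor chain that binds hyaluronan, with a ratio of 9.73. Scrg1, Pappa and Sox9 were higher with ratios of 5.36, 5.39 and 3.02. Col4a1 and Slc7a8 were lower in 4 of 4, with ratios of 0.532 and 0.518. Krt14 was higher with a ratio of 4.02, and Acta2, which the rule limits, was at 140 against 1640 CPM in these 4 libraries. PBMCsec library 2, with 739 CPM of Acta2 in its 30 members, is not among them.

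Bulge-type cells were taken as the 358 Krt5 Krt14 cells with at least 2 of Lhx2, Grem1 and Npnt and fewer than 4 of each rule list. Their median of 6177.5 UMIs was below that of the members. Over 6 libraries, the members held more Gja1, a gap junction gene, with a ratio of 10.3, and more Timp3, with a ratio of 9.91. They held less Krt15 (ratio 0.342) and Cd34 (0.577), a surface marker of bulge stem cells, and each was lower in 6 of 6 libraries. Sfrp1 was shared, at 625 CPM in the bulge-type cells, but Id4 was at 122 CPM and Slc7a8 at 15.01 CPM. Sox9, at 746 CPM, and Gas1, at 629 CPM, were close to the members' 677 and 607 CPM.

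Levels were also followed along the number of the 8 genes found in a cell, in Krt5 Krt14 cells with fewer than 4 contractile genes. Each step averages the libraries with at least 10 cells in it, 8 at none, 5 at 4 genes and 4 at 8. Mat2a went from 114 CPM in the 1364 cells with none of the 8 to 275 CPM at 4 genes and 1898 CPM at 8. Timp3 went from 155 to 608 and 1890 CPM at the same steps. Krt15 went the other way over the later steps only, from 5117 CPM at 4 genes to 1578 CPM at 8. Cst6 stood at 2921 CPM with none of the 8, 33.0 CPM at 3 and 18.9 CPM at 8. Tnc had reached 445 CPM at 4 genes and was 443 CPM at 8, without the steps of Mat2a. In the 4 libraries present at every step (PBMCsec 3 and 4, vehicle 3 and 4), a set chosen after seeing the data, Mat2a was at 109, 332 and 1898 CPM with none, 4 and 8 of the genes, and Tnc at 483 CPM with 4 and 443 CPM with 8. Krt15 was there at 4249, 4881 and 1578 CPM with none, 4 and 8. The median depth did not rise steadily along these steps, with 8699 UMIs at none, 9740 at 1 gene, 8008 at 4, 7528.5 at 5 and 10431 at 8, and its part in the levels was not tested.

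**Figure D2:**
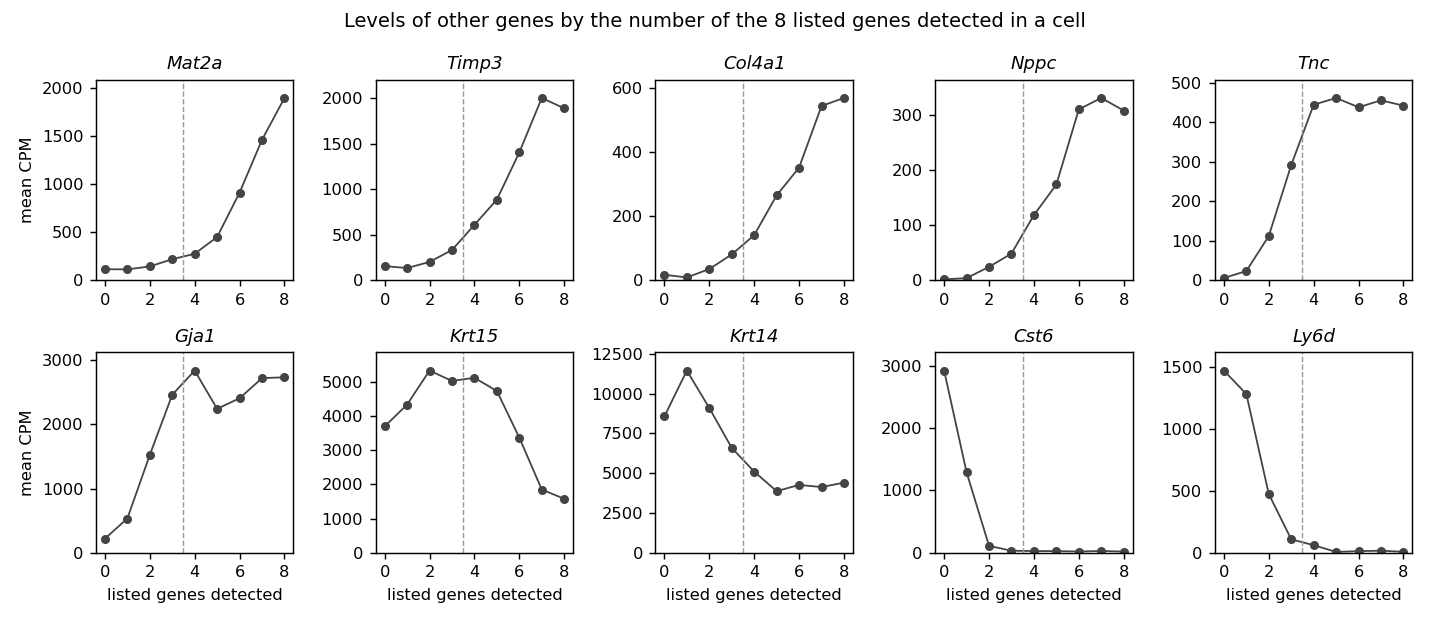
Mean CPM over libraries of 10 genes against the number of the 8 listed genes detected in a cell, for Krt5 Krt14 cells with fewer than 4 contractile genes. Cells right of the dashed line are members, and each step averages the libraries with at least 10 cells in it (4 to 8 libraries). Mat2a climbs to 1898 CPM at 8 genes, Tnc is level from 4 genes on, and Krt15 drops to 1578 CPM.

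The members were not uniform. When all Krt5 Krt14 cells were clustered without any of the rule genes, 18 of 28 clusters held a member, and 3 clusters held 69.5% of them. Cluster 2, led by Gnmt, Mat2a and Col12a1, held 30.2% of the members, and 34.5% of its cells were contractile. Cluster 8, led by Nppc, Scrg1 and Itih5, held 23.7%, and 87.2% of its cells were members. Cluster 12, led by Gdf10, Hmcn1 and Nppc, held 15.7% of the members and 8.10% of the bulge-type cells. Cluster 3 held 11.8% and was led by Pthlh, Dclk1 and Rap1gap2, with the companion-layer markers Pthlh and Wfdc18 among its top 10 genes. Clusters are named by number, and apart from the rule genes their leading genes could take part in making them.

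Members of cluster 2 held 1663 CPM of Mat2a and 2248 CPM of Timp3, and only 67.0 CPM of Nppc. Members of cluster 12 held 569 CPM of Nppc, 5912 CPM of Krt15 and 2733 CPM of Col17a1, a hemidesmosome collagen of basal stem cells, with 408 CPM of Mat2a. Members of cluster 8 lay between these for Mat2a, Timp3 and Krt15. Members of cluster 3 stood apart with 10211 CPM of Krt17, 41.0 CPM of Col17a1 and 111 CPM of Lgr5. Their Nppc, at 7.11 CPM (0 to 14.6 over libraries), was near the 8.15 to 13.0 CPM of the contractile cells. The gap junction gene Gjb2 was at 2078 CPM in members of cluster 3, 1295 CPM in cluster 2 and 35.8 CPM in cluster 12. Cluster 2 took 14.8% and 16.7% of the members of PBMCsec libraries 1 and 2, against 23.8% to 35.7% in the other libraries with at least 10 members, and even inside it Gnmt ranged from 10.9 to 728 CPM among libraries.

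**Figure D3:**
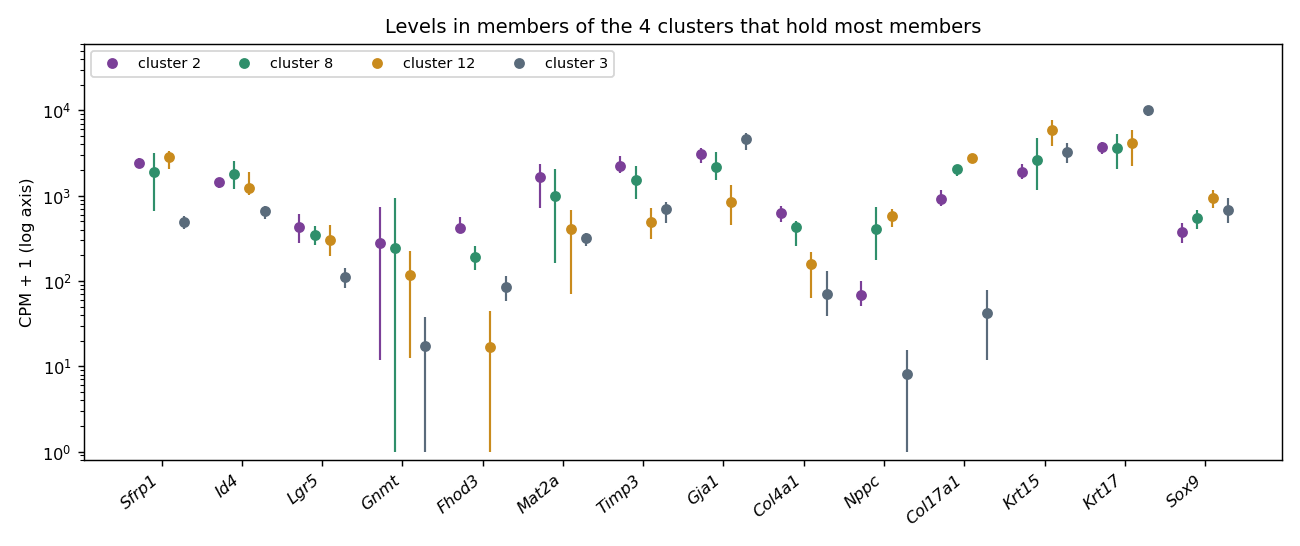
Mean CPM plus 1 on a log axis of 14 genes in the members of the 4 clusters that hold most members, with vertical lines from the lowest to the highest library (4 to 6 libraries with at least 10 such cells). The clusters were made without Sfrp1, Id4, Lgr5, Gnmt or Fhod3. Col17a1 is at 41.0 CPM in cluster 3 and 2733 CPM in cluster 12, and the line of Gnmt in cluster 8 reaches from 0 to 937 CPM.

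Lists of non-epithelial cells, sebaceous gland, hair matrix and inner root sheath each summed to at most 344 CPM per library in the members. Lists of nearer keratinocytes summed to more. The infundibulum and upper follicle list was at 363 to 602 CPM, against 2272 to 8367 CPM in the other Krt5 Krt14 cells. The interfollicular epidermis list was at 5435 to 7608 CPM, against 11995 to 18257 CPM. Companion layer markers averaged 378 against 826 CPM. The 10 T and NK cell markers summed to 57.4 to 140 CPM per library, with Nkg7 and Icos at 0, and Trbc2 was the most abundant at 91.1 CPM. The 10 pericyte and smooth muscle markers summed to 162 to 344 CPM, led by Cspg4 at 157 CPM, with Kcnj8 at 0. In the other Krt5 Krt14 cells that sum ran from 59.9 to 280 CPM, and in vehicle library 3 it was 334 CPM in the members against 63.9 CPM. The 10 fibroblast markers summed to 73.1 to 234 CPM, led by Col6a1 at 41.9 CPM, and the 10 myeloid markers to 4.41 to 59.5 CPM, led by Cd74 at 9.92 CPM. The 10 endothelial markers summed to 5.84 to 22.1 CPM, with Vwf at 0. Sebaceous gland markers summed to 99.2 to 315 CPM, hair matrix and cortex markers to 132 to 259 CPM and inner root sheath markers to 70.6 to 194 CPM. Red blood cell genes summed to 0 to 101 CPM, with PBMCsec library 4 the highest. Trbc2 and Cspg4 were higher in the contractile cells (130 and 246 CPM) than in the members. The part of these transcripts in the levels above was not tested. By the broad marker lists 313 members held 2 or more genes of another class. By a stricter list of defining markers, chosen after seeing the data, 12 did. A barcode was shared with a filtered cell of another library by 3 members.

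The question of the treatment comparison was whether skin injected with PBMCsec differed from skin given vehicle in these cells. The members were 20.9%, 25.6%, 11.3% and 17.4% of the Krt5 Krt14 cells in PBMCsec libraries 1 to 4, and 7.58%, 13.4%, 20.7% and 18.8% in the vehicle libraries. The groups overlapped. The means were 18.8% ± 6.05 (SD, n = 4) and 15.1% ± 5.90 (SD, n = 4), and an exact two-sided permutation test over the libraries gave p = 0.40 (0.80 adjusted over both shares). Of all filtered cells the members were 6.44% ± 1.63 after PBMCsec and 6.70% ± 4.25 after vehicle (exact permutation p = 0.857, adjusted 0.857). The smallest p that 4 against 4 libraries allow is 0.0286. Keeping only cells with at most 5% mitochondrial UMIs, which leaves 48.0% of the members, turned the first difference from 3.68 to -1.86 percentage points. It was 1.17 without vehicle library 1, 1.40 without PBMCsec library 2, and 5.55 and 6.19 without vehicle library 3 and PBMCsec library 3. The second, of -0.256 percentage points, turned to 0.124 with at least 20 Krt5 and Krt14 UMIs per cell, and to as much as 1.27 on leaving out any 1 of 4 libraries (PBMCsec 2 or 3, vehicle 3 or 4).

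**Figure D4:**
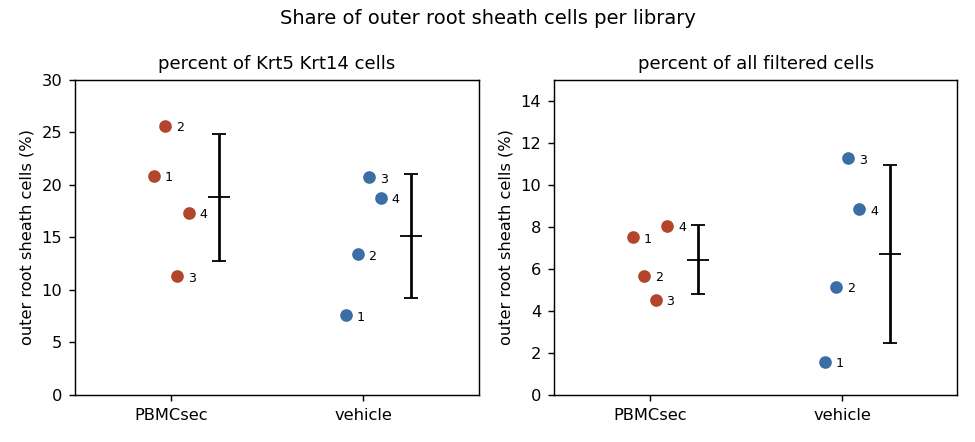
Outer root sheath cells as a percentage of Krt5 Krt14 cells (left) and of all filtered cells (right) in each library. Points are libraries with their number, and the bar is the mean with its SD (n = 4 in each group). The groups overlap in both panels, from 7.58% in vehicle library 1 to 25.6% in PBMCsec library 2 on the left.

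Gene levels were compared between 4 PBMCsec and 3 vehicle libraries. Of 8613 genes tested with edgeR's quasi-likelihood test, 0 (0%) passed an adjusted p of 0.05, and DESeq2 and limma also called 0. At an unadjusted p under 0.05, edgeR gave 232 genes (2.69%), DESeq2 124 and limma 237. The groups did not overlap for 332 genes (3.85%), 169 higher (1.96%) and 163 lower (1.89%) after PBMCsec. Without the filter on low counts edgeR called 78 genes. In counts simulated at this size with a common dispersion for all genes, the test recovered 91.5% of 4-fold changes and 26.5% of 2-fold changes. Smaller changes would thus mostly not have been detectable. The spread of single genes was not simulated, so the rates in these data may be lower, also for 4-fold changes.

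The 5 genes with the smallest unadjusted p in each direction were taken among genes of at least 20 CPM with non-overlapping groups, and none passed the test (edgeR adjusted p = 1.0 for each). Without the filter on low counts, Ddit4, Mt2, Ifitm3, Rel, Raph1 and Cyp1b1 passed, with edgeR adjusted p from 7.3e-05 to 0.0086, and Ly6e, Nfe2l3, Slc1a4 and Igfbp6 did not. Their CPM are TMM-scaled. Ddit4, an inhibitor of mTOR signalling that responds to stress and glucocorticoids, was at 224, 131, 135 and 101 CPM after PBMCsec and at 65.5, 59.4 and 52.0 CPM after vehicle (log2 difference 1.35, SE 0.28). The metallothionein gene Mt2 was at 143, 58.8, 64.3 and 28.3 CPM against 26.2, 26.0 and 9.53 CPM (log2 difference 1.91, SE 0.53). PBMCsec library 1 was the highest for both. Ifitm3, an interferon-induced membrane protein gene, was at 351, 712, 177 and 208 CPM against 91.7, 155 and 134 CPM, with library 2 far above the others. Ly6e and Rel, a subunit of NF-kappaB, had log2 differences of 0.86 (SE 0.26) and 1.44 (SE 0.45). With the replicate number as a block that of Rel was 0.78, and without PBMCsec library 1 that of Mt2 was 1.29.

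On the lower side, Raph1, a regulator of actin at the leading edge of cells, was at 46.5, 71.8, 61.1 and 74.0 CPM after PBMCsec and at 114, 125 and 158 CPM after vehicle (log2 difference -1.09, SE 0.22). Cyp1b1, a cytochrome that metabolises retinoids and steroids, was at 12.6, 9.80, 20.4 and 28.3 CPM against 30.6, 52.4 and 55.0 CPM (log2 difference -1.34, SE 0.32). The nearest libraries of the groups were 28.3 and 30.6 CPM. Nfe2l3, the amino acid transporter gene Slc1a4 and Igfbp6 had log2 differences of -1.26, -0.92 and -1.01 (SE 0.36, 0.27 and 0.30). At a limit of 5% mitochondrial UMIs, where PBMCsec library 2 also dropped out with fewer than 10 members, the log2 difference was 0.68 for Ifitm3 and -0.37 for Igfbp6. Without that library alone, at the limit of 10%, it was 0.90 for Ifitm3 and -0.92 for Igfbp6. The summed fibroblast markers in the members also separated the groups, with 151, 73.1, 184 and 111 CPM after PBMCsec and 234, 229 and 187 CPM after vehicle, and their part in the differences was not tested.

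The genes that chose the cells were required in every library alike, so their levels by treatment are a description only. Lgr5 was at 330, 255, 420 and 246 TMM-scaled CPM after PBMCsec and at 266, 316 and 246 CPM after vehicle. Sfrp1 averaged 1682 ± 718 CPM (SD, n = 4) and 2066 ± 772 CPM (SD, n = 3). Id4 averaged 1057 ± 172 CPM and 1295 ± 259 CPM.

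With the filter on low counts, gene lists gave no called member. Without that filter, the 78 genes called by edgeR included Dusp1, Nr4a1, Ptgs2 and Bst2. The 24 immediate early and heat shock genes were all higher on average after PBMCsec, with a median log2 difference of 0.97, where 4507 of all 8613 genes were higher, with a median of 0.01. Their summed level was 15662, 14481.5, 8137 and 3534 CPM in PBMCsec libraries 1 to 4 and 8376, 6416 and 3903 CPM in vehicle libraries 2 to 4. The groups overlapped, and PBMCsec library 4 was the lowest of all. In both groups the sums were highest in libraries numbered 1 or 2. Vehicle library 1 was left out, so numbers 1 and 2 were both present after PBMCsec but only number 2 after vehicle. In libraries 3 and 4 the sums were 8137 and 3534 CPM after PBMCsec, against 6416 and 3903 CPM after vehicle. The part of this imbalance in the list differences was not tested. The 11 glucocorticoid-responsive genes tested were also all higher, with a median of 1.15, and summed to 2572, 1823, 1282 and 718 CPM against 1258, 1069.5 and 716 CPM. The largest log2 difference, 2.24, was the same in both lists, which overlap in their members and are not separate evidence. The interferon-stimulated list, with 8 of 8 tested genes higher and a median of 0.42, summed to 599, 804, 420 and 331 CPM against 349, 385 and 371 CPM. In contrast, the 24 tested genes of matrix adhesion and basement membrane had 14 higher and 10 lower and a median of 0.10, and the 16 tested follicle regulators 7 higher and 9 lower and a median of -0.03. Lists were chosen with earlier results of these data known, and the counts describe these libraries only. Genes that respond to tissue dissociation are among the immediate early and heat shock genes, and their part in these differences was not tested.

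**Figure D5:**
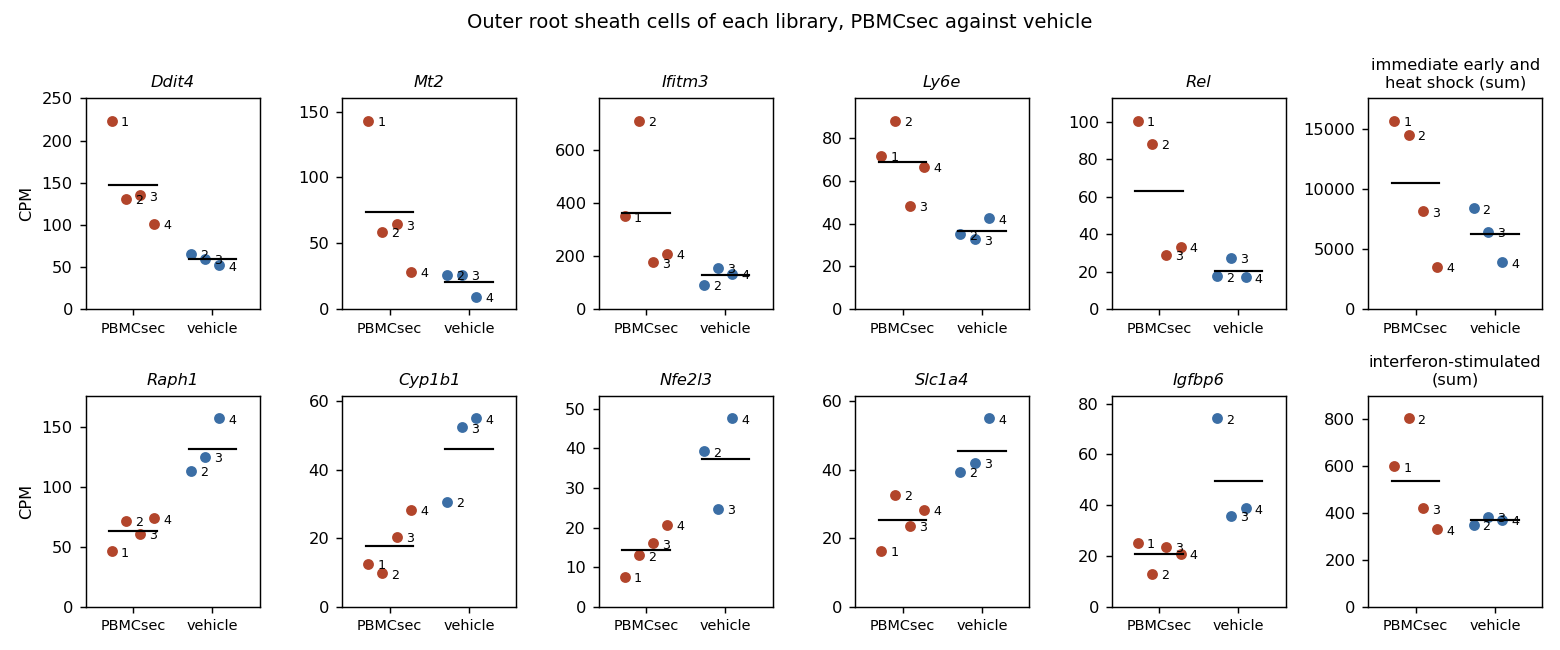
Levels in the members of each library, with the library number beside each point and the group mean as a line. The 10 named genes are in TMM-scaled CPM and the list sums (right column) in CPM of the total. For the 10 genes the groups do not overlap, which was the condition for naming them, while the sums of both lists overlap, with PBMCsec library 4 at 3534 CPM of immediate early and heat shock genes.

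Whether the PBMCsec difference in the members departed from that in the other Krt5 Krt14 cells was tested with each library as its own block. Of 10323 genes, 0 (0%) passed an adjusted p of 0.05 by edgeR and 0 by limma, and 356 (3.45%) had an unadjusted edgeR p under 0.05 (458 by limma). For the named genes the differences of differences were 0.90 (SE 0.32) for Ddit4, 1.69 (SE 0.47) for Mt2, -1.003 (SE 0.26) for Raph1 and -1.36 (SE 0.40) for Igfbp6 on the log2 scale, each with an edgeR adjusted p of 1. Without the filter on low counts edgeR called 31 genes, with Mt2 among them. The differences of differences were smaller for the other named genes, at 0.75 (SE 0.44) for Rel, 0.38 (SE 0.25) for Ly6e, 0.31 (SE 0.27) for Ifitm3, -0.31 (SE 0.29) for Cyp1b1, -0.30 (SE 0.41) for Nfe2l3 and -0.07 (SE 0.31) for Slc1a4.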

How the data were processed

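Dorsal skin libraries of 8 samples were analysed. Per the labels and file headers, the deposited values are whole UMI counts per gene and barcode against mm10, without normalization, for barcodes called as cells. Version 3.0.2 of Cell Ranger stands in the headers, while the study's methods give v4.0. Cells were selected by the limits in the report. The study's limit of 5% mitochondrial UMIs was an alternative, and 10% was used here. Gm42418, Gm17056, Gm26917, Col1a1, Col1a2 and Col3a1 were left out of tests, and no doublet caller was run.

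Summed counts of members per library (at least 10 cells) were compared under R 4.3.3 with edgeR 4.0.16, using TMM factors, its default filter on low counts and quasi-likelihood fits, with p-values adjusted by Benjamini-Hochberg (threshold 0.05). DESeq2 1.42.0 and limma 3.58.1 were alternatives. The study's methods describe 2 injected mice per group at each of 2 times, but the labels tie no library to a mouse or time, so p-values measure the spread between these libraries. Shares were compared with exact permutation tests over libraries (scipy 1.17.1). Clusters came from 2000 variable genes, 30 components, 15 neighbours and Leiden (leidenalg 0.10.2). The tests were checked on simulated data with known changes. Positions are from GENCODE M21 (GRCm38).

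Named genes were the rule genes, up to 4 of the highest in each list, the 15 largest and 5 smallest ratios, and the 5 rises and 5 falls of the treatment comparison. Other genes named were picked with their values in view. Members and lists were chosen with earlier results of these data known.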

Additional observations from a re-analysis of the deposited data

Results flagged for a closer look

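Where 4 values allow the check of a library far from the others, 59 groups of values were examined and 3 stood apart. The groups examined were of PBMCsec libraries, except that both shares were also examined in the vehicle libraries. Chance flags about 1 in 20 such groups. Acta2 was at 739 CPM in the members of PBMCsec library 2, which holds 30 members, while the other PBMCsec libraries lay between 22.2 and 117 CPM. Serpinb2 was at 25.6 CPM in PBMCsec library 3, against 1.55 to 3.5 CPM. Slc3a2 was at 440 CPM in PBMCsec library 3, against 701 to 742 CPM. Groups of 3 vehicle libraries were not examined in this way.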

How the results depend on the processing

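With all 8 libraries and no pairing, the alternatives for the shares gave exact permutation p from 0.40 to 0.914. With 1 library left out the smallest exact p is 0.0571, and 4 pairs cannot reach the threshold either, so those alternatives could not have passed it. The difference in the share of Krt5 Krt14 cells was -1.86 percentage points at a limit of 5% mitochondrial UMIs, 1.30 with doublets by the broad lists left out, 1.58 with cells thinned to 4000 UMIs, and 1.17 to 6.19 when 1 library was left out. The difference in the share of all filtered cells was 0.124 percentage points with at least 20 Krt5 and Krt14 UMIs, -1.89 at 5% mitochondrial UMIs, -1.09 with contractile cells kept, -0.878 thinned, -0.617 with doublets by the broad lists left out, and -1.97 to 1.27 when 1 library was left out, turning positive without PBMCsec library 2 or 3 or vehicle library 3 or 4. The causes were not tested. Of 30 alternatives for the counts of called genes, 27 gave 0. Without a filter on low counts 78 genes were called for PBMCsec against vehicle (68 higher, 10 lower), among them Ddit4, Mt2, Ifitm3, Rel, Raph1 and Cyp1b1. For its difference from the other Krt5 Krt14 cells 31 were called (20 higher, 11 lower), with Mt2 among them. Leaving out 1 library gave 0 to 1 called genes, the 1 being Ctgf, higher after PBMCsec, without PBMCsec library 4, and 0 to 0 for the difference from the other cells. The 10 named genes were chosen for groups that do not overlap, so their direction says nothing of stability. Their values came as near to 0 as 0.68 for Ifitm3 and -0.37 for Igfbp6 (5% mitochondrial UMIs, which also left PBMCsec library 2 under 10 members), 0.76 for Ifitm3 (doublets by the broad lists left out), 0.78 for Rel (replicate block) and 1.29 for Mt2 (without PBMCsec library 1), each a fold over 1.5 times from the reported one. No other refit moved a named gene that far. Nfe2l3 was not tested with at least 5 of the 8 genes.

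The deviations of libraries with equal number correlated at 0.06, 0.04 and 0.41 for numbers 2, 3 and 4 across 8613 genes, so the numbers were not taken to pair the libraries. With the replicate block 0 genes were called. Pairing cannot move the share differences of 3.68 and -0.256 percentage points, since the mean over complete pairs equals the difference of the means, and the exact permutation p were 0.50 and 0.75.

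With 30 and 21 members, PBMCsec library 2 and vehicle library 2 give the least precise levels. Marker lists used for leaving out possible doublets also hold genes of follicle epithelium and marked 313 members, so a stricter list, chosen after seeing the data, was added and called 0 genes as well.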

Other observations

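Rgs5, a pericyte gene, was at 126 CPM in the members of vehicle library 3 and at 0 to 1.17 CPM in the other 6 libraries. Krt42 ranged from 8.83 CPM in vehicle library 2 to 161 CPM in PBMCsec library 2. The contractile cells, which meet most of the rule, were distributed unevenly, with 7, 5, 55 and 163 cells in PBMCsec libraries 1 to 4 and 0, 9, 200 and 142 in vehicle libraries 1 to 4.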
